A study of Mus musculus with 12 samples.

Results

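Steroid, prolactin and thyroid hormone signalling genes of the mouse submandibular gland (SMG) are described here across sex and Pou2f3 genotype. The members are 7 genes chosen by name out of 56065 genes in the count table: Esr1, Pgr, Nr3c2, Prlr, Srd5a1, Thra and Thrb. Each was found once, by its Ensembl identifier in the Gencode mouse annotation, and all 7 passed the low-count filter. The 12 glands came from mice aged 8 weeks, with 3 biological replicates in each of 4 groups: wild-type C57BL/6J mice of each sex, and mice of each sex that lack Pou2f3 on the same C57BL/6J background, called knockouts here. The knockout is a whole-body deletion of the transcription factor that tuft cells (TCs) need, so TCs are missing from every organ of these mice and not from the gland alone. The stage of the oestrous cycle, and whether the wild-type mice were littermates of the knockouts, are not given in the sources used here. In bulk samples such as these, fewer cells of a type and less RNA per cell cannot be told apart.

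Steroid hormone receptors are transcription factors that a lipid-soluble hormone switches on inside the cell. Esr1 encodes oestrogen receptor alpha, Pgr the progesterone receptor and Nr3c2 the mineralocorticoid receptor, which answers aldosterone in sodium-transporting epithelia such as salivary ducts. Srd5a1 encodes a steroid 5-alpha reductase, the enzyme that turns testosterone into the stronger androgen dihydrotestosterone. Thra and Thrb encode the thyroid hormone receptors, which sit on DNA with a retinoid X receptor. Prlr encodes the prolactin receptor, a cell-surface cytokine receptor that signals through JAK2 and STAT5. The rodent SMG is a classical target of androgens and thyroid hormone, which enlarge the granular convoluted tubules of the male gland, the source of epidermal growth factor.

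The promoters of Prlr and Nr3c2 are shown because Prlr had the largest difference between the wild-type sexes among the members and Nr3c2 was the member called for the interaction of sex and genotype. RefSeq (GRCm38.p6) gave 10 promoter windows for 6 of the 7 members. The 250 bases before each start matched GRCm39 exactly and once. For Prlr there are 3 windows on the plus strand of chromosome 15 in GRCm39, chr15:10177074-10177323, chr15:10223742-10223991 and chr15:10293487-10293736. The single Nr3c2 window is chr8:77628708-77628957, also on the plus strand. Capitals mark matches, on either strand, to the motifs searched, and the last base printed lies next to the transcription start.
Prlr window 1: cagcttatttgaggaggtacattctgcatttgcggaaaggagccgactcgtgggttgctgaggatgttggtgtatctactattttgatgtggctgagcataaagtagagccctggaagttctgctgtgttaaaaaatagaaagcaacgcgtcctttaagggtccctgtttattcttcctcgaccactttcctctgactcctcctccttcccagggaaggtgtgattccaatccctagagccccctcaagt
Prlr window 2: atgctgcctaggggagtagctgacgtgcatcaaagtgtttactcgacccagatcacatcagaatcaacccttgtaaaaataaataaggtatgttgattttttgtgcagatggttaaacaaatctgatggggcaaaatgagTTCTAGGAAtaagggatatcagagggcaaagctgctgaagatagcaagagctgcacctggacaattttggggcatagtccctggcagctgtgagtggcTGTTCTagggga
Prlr window 3: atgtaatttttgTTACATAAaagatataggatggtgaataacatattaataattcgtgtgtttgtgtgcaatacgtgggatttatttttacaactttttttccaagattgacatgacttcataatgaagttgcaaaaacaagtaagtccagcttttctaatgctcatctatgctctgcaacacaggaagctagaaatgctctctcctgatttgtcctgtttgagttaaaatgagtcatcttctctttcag
Nr3c2 window: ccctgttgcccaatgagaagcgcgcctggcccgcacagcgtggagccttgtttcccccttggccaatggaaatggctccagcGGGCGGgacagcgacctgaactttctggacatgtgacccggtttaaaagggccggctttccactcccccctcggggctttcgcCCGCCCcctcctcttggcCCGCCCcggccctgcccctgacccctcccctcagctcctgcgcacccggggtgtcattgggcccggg

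The motifs searched were AGGTCA (the half-site of thyroid hormone, retinoid and oestrogen receptors), AGAACA (the half-site of mineralocorticoid, glucocorticoid and progesterone receptors among others), TTCNNNGAA (the STAT site), CACGTG (the E-box), TTATGTAA (the D-box of the clock), TGACGTCA (the cAMP response element), GGGCGG (the GC box) and TATAAA. Prlr window 2 holds a STAT-type match starting at position -110 from the start and an AGAACA match at -12 on the minus strand. Of all 32851 RefSeq windows (250 bases before to 50 after a start), 8.30% hold the STAT-type motif and 19.0% hold AGAACA. Prlr window 3 holds a D-box at -238 on the minus strand, a motif present in 0.938% of windows, and Prlr window 1 holds none of the motifs. The Nr3c2 window holds 3 GC boxes, at -168, -85 and -67, and none of the other motifs. GC boxes occur in 35.7% of all windows. Among the other members, Thrb window 1 holds AGGTCA at -184 (16.3% of windows) and GC boxes at -125, -76 and -72, and Thrb window 2 holds AGAACA at -23 and -7, an E-box at -193 (7.15% of windows) and TATAAA at -167 (13.6% of windows). Esr1 window 2 holds a STAT-type match at -188, and the Srd5a1 and Pgr windows hold GC boxes, with TATAAA at -212 in Pgr. A match is a run of letters and was not tested for binding.

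Total estimated counts per library ranged from 47031917 to 67881902, and levels are given as CPM, counts scaled to a common library size by edgeR's TMM method. The members had 62 (Esr1) to 3726 (Prlr) counts in a library. Pou2f3 itself was at the limit of detection, with counts of 1, 0 and 2 in female wild type, 0 in each female knockout, 1, 10 and 0 in male wild type and 0, 3 and 1 in male knockout, so the bulk data do not check the genotype labels. The limit that a count of 0 sets, 3 counts, lay between 0.0399 and 0.0782 CPM and covers counting error only. Defining genes of the gland were present in every library: Aqp5, the water channel of acinar cells, had at least 4897 counts and Krt8, a duct keratin, at least 3040. Markers of other cell types varied between mice of a group. The summed level of 10 adipocyte markers was 108 CPM in female wild-type mouse 3, 81.9 and 45.7 CPM in male knockout mice 2 and 3, and 1.90 to 12.7 CPM in the other 9 glands. Muc19, a mucin of mucous salivary cells, reached 4900 CPM in 1 female knockout gland and 7390 CPM in 1 male wild-type gland, against a lowest level of 7.15 and 2.59 CPM in the same groups. The part of these cells in the differences below was not tested, apart from leaving libraries out.

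**Figure D1:**
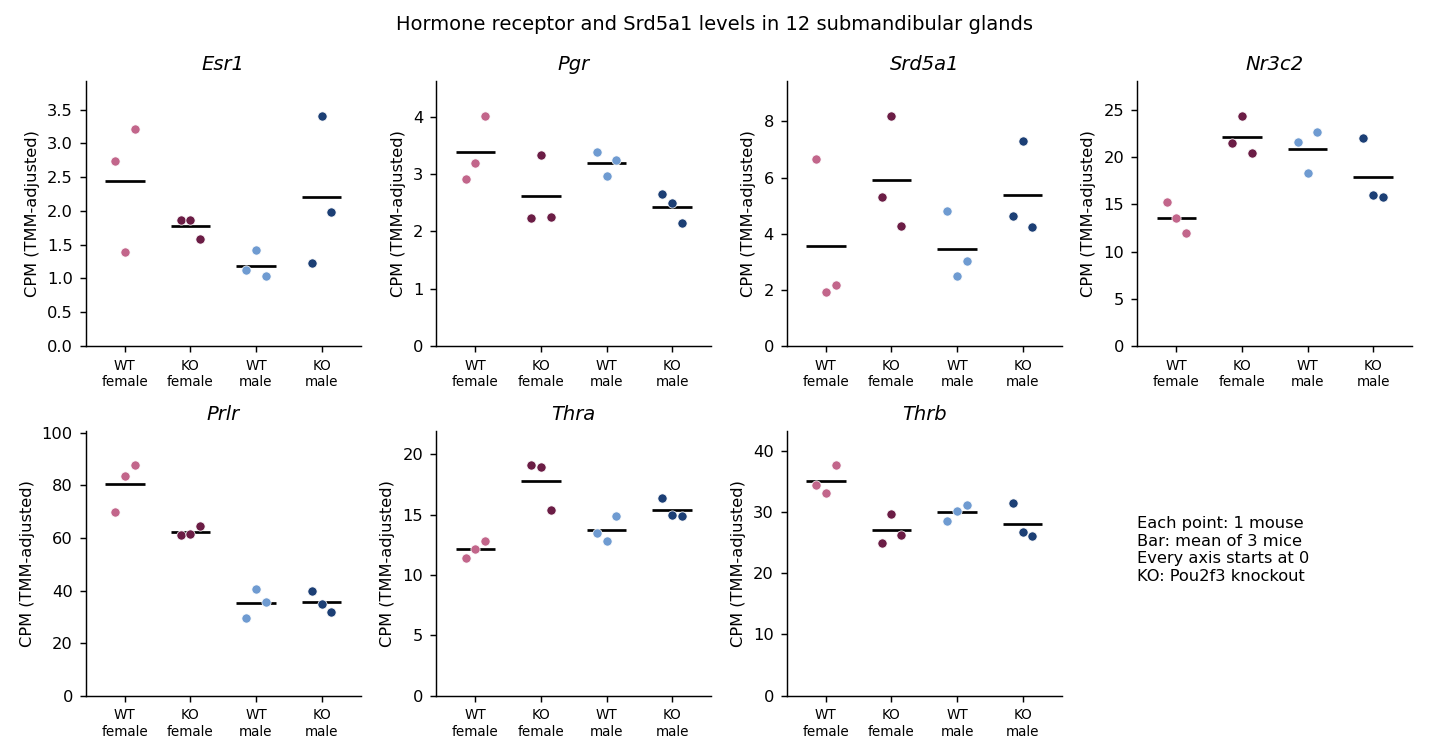
Levels of the 7 members in CPM (y axes, each from 0) in the 4 groups (x axes); points are single mice and bars are means of 3. Prlr separates the sexes in every mouse, with females at 61.0 to 87.6 CPM and males at 29.6 to 40.7 CPM, whereas Nr3c2 is lowest in all 3 female wild-type glands.

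The first question was whether loss of Pou2f3 went with other receptor levels in each sex. In females, 4 of 7 members were differentially expressed genes (DEGs) at an adjusted p under 0.05 in edgeR's quasi-likelihood test: Nr3c2 and Thra rose and Prlr and Thrb fell, calls that held for Nr3c2 and Thra but not for Prlr and Thrb on the authors' scaling. Of all 17893 genes tested, 36.9% were DEGs in this comparison, so that calls were common over the genome as well as among the members. The median log2 fold change of the members was -0.36, against 0.03 over all genes tested. All 4 DEGs also had groups that did not overlap, as did 49.3% of all genes. In males, 0 of 7 members were DEGs in edgeR, against 0.235% of all genes. At an unadjusted p under 0.05 the count was 1, Esr1, with an adjusted p of 0.35. DESeq2 also called 0 members in males. The background share rests on 42 genes and was unstable: 388 genes were called with DESeq2, 389 without the low-count filter and 635 without male knockout mouse 1. Without female wild-type mouse 1 the number was 65, without male wild-type mice 1, 2 or 3 it was 13, 25 and 13, and without male knockout mice 2 or 3 it was 14 and 15. The count of members stayed at 0 in each of these fits. Groups of males did not overlap for Pgr and Thra, 2 of 7 members, against 14.5% of all genes. For Thra this rests on digits beyond those shown: the highest wild type and the lowest knockout were both 14.9 CPM. The differences were small in absolute terms, from 1.29-fold for Prlr to 1.63-fold for Nr3c2 among the female DEGs.

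The second question was how the sexes differed within a genotype. Between male and female wild type, 3 of 7 members were DEGs, against 36.5% of all genes, with Nr3c2 higher and Esr1 and Prlr lower in males. Groups did not overlap for 4 members here (Nr3c2, Prlr, Thra and Thrb), against 47.6% of all genes. For Thra the highest female and the lowest male wild type were both 12.8 CPM to the digits shown. Between male and female knockouts 1 of 7 members, Prlr, was a DEG, against 43.5% of all genes, and it was also the single member without overlap, against 54.8% of all genes. The members' median log2 fold change between the sexes was -0.08 in wild type and -0.14 in knockouts, with 0.06 and -0.02 over all genes.

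**Figure D2:**
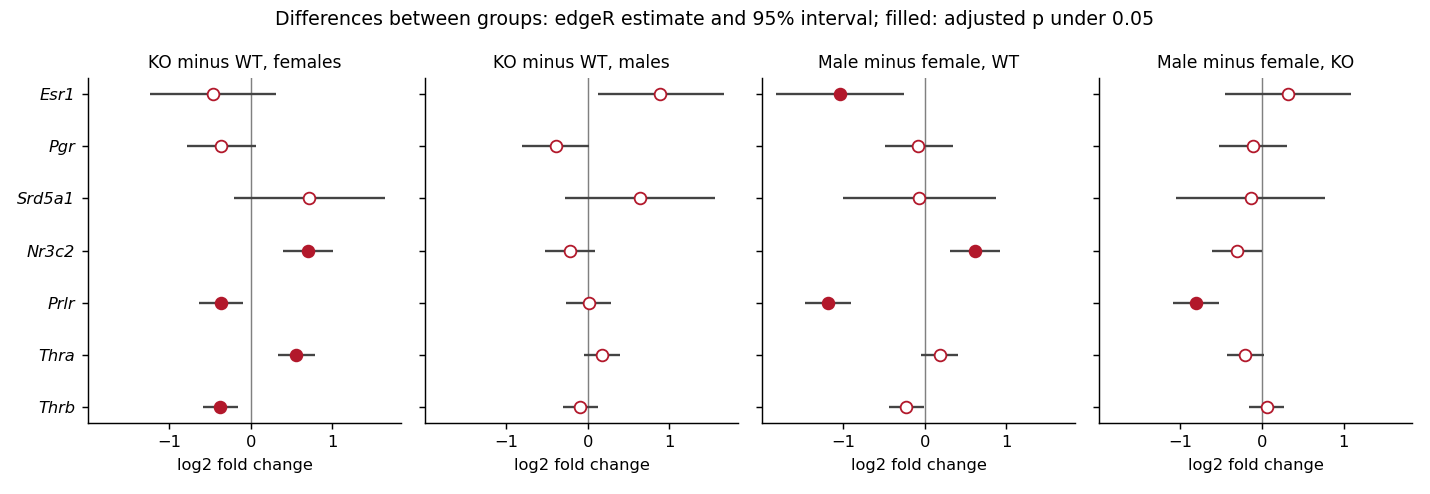
Log2 fold changes (x axes) of the 7 members (rows) in 4 comparisons, as edgeR estimates with 95% intervals; filled points have an adjusted p under 0.05. Filled points appear for 4 members in females (on the authors' scaling Thrb turns to 0.09 and Prlr, at -0.29, is not called), for 0 in males, for 3 between the sexes in wild type, and for Prlr alone between the sexes in knockouts.

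Esr1 (ENSMUSG00000019768.17, chromosome 10, 4561593 to 4955626, plus strand, GRCm39) was the least abundant member per length. Female wild-type glands had 2.74, 1.39 and 3.21 CPM, female knockouts 1.86, 1.86 and 1.59, male wild types 1.12, 1.42 and 1.03, and male knockouts 1.23, 3.41 and 1.99. The female wild types overlapped every other group, and male knockout mouse 2 had the highest level of all 12. Between wild-type males and females Esr1 differed by -1.04 on the log2 scale (SE 0.36, adjusted p = 0.038, edgeR), although female mouse 2 lay within the male range. This call was lost in 6 of the 12 fits that each left out 1 library, with adjusted p between 0.013 and 0.15, and it was -0.81 (adjusted p = 0.15) without female wild-type mouse 3. With the authors' factors it was -0.99 (adjusted p = 0.09). The other libraries whose removal ended it were female wild-type mouse 1, male wild-type mice 1 and 3, female knockout mouse 1 and male knockout mouse 3. Genotype differences of Esr1 were not called. The female one was -0.46 (SE 0.36, adjusted p = 0.33), and the male one was 0.89 (SE 0.36, adjusted p = 0.35). The difference between these, -1.36 (SE 0.51), had an adjusted p of 0.064 in edgeR and 0.028 in DESeq2. It was called in edgeR without the low-count filter (-1.37, adjusted p = 0.034), and without male knockout mouse 1 (-1.65, adjusted p = 0.022) or female wild-type mouse 2 (-1.73, adjusted p = 0.026).

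The 3 glands with the highest Esr1 each had the highest sum on more than 1 list of cell type markers. High sums did not always go with high Esr1. Male wild-type mouse 2 had the highest granular convoluted tubule, myoepithelial and skeletal muscle sums, 153000, 540 and 2.63 CPM. Its Esr1 level was 1.42 CPM. The part of any cell type in the Esr1 levels was not tested. Male knockout mouse 2 had the highest summed level of 10 fibroblast markers, 1210 CPM against 536 to 971 in the other 11 glands. It also had the highest sum of 5 blood markers, 9.86 CPM. Female wild-type mouse 1 had the highest sum of 9 macrophage markers, 307 CPM against 93.9 to 241. That gland was also highest for endothelial (58.5 CPM) and lymphocyte (1.23 CPM) markers. Female wild-type mouse 3 had the highest adipocyte and acinar sums, 108 and 597000 CPM. Female knockout mouse 2, with a fibroblast sum of 823 CPM, had 1.86 CPM of Esr1, and male knockout mouse 3, with sums of 45.7, 971 and 226 CPM for adipocyte, fibroblast and macrophage markers, had 1.99 CPM. The 3 genes whose log2 CPM was most like that of Esr1 across the 12 libraries, Pparg (r = 0.952), Rgs19 (0.942) and Slc16a1 (0.926), include Pparg, the master regulator of fat cell differentiation. Pparg was at 1.20 CPM in male knockout mouse 2 and at 0.730 CPM in female wild-type mouse 3, and at 0.113 to 0.171 CPM in the male wild types and male knockout mouse 1. These coefficients describe libraries that share their scaling, and no other use is made of them. On deviations from the group means, the coefficients of Pparg, Rgs19 and Slc16a1 were 0.937, 0.937 and 0.924. None of the 3 was among the 3 most alike there, which had 0.970, 0.944 and 0.940. When the 3 libraries with the highest adipocyte sums were left out together, a setting chosen after seeing the data, Esr1 was -0.81 between the wild-type sexes (adjusted p = 0.071).

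Pgr (ENSMUSG00000031870.17, chromosome 9, 8899830 to 8968612, plus strand) was low and similar in the sexes. Its levels were 2.92, 3.19 and 4.02 CPM in female wild types, 2.24, 3.34 and 2.25 in female knockouts, 3.38, 2.96 and 3.24 in male wild types and 2.65, 2.50 and 2.15 in male knockouts. In males all 3 knockouts lay below all 3 wild types, and in females 2 of 3 did. The log2 difference was -0.36 in females (SE 0.19, 95% interval -0.78 to 0.06, adjusted p = 0.16) and -0.39 in males (SE 0.19, 95% interval -0.81 to 0.02, adjusted p = 0.47), so neither was a DEG. Without female knockout mouse 2 the female difference was -0.63 (adjusted p = 0.026). Between the sexes Pgr differed by -0.08 in wild type (95% interval -0.49 to 0.34) and -0.11 in knockouts (95% interval -0.53 to 0.31). Dsc3, a desmosomal cadherin, was the gene most like Pgr (r = 0.891), followed by Ldlrad3 and Sdr42e1. On deviations from the group means the coefficients of these 3 genes were 0.829, 0.885 and 0.648, and none was among the 3 most alike.

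Of 9 other receptors related to these, 7 could be tested. In females 1 rose and 3 fell in knockouts, with a median log2 fold change of -0.09 and against 36.9% of all genes called. In males 0 of 7 were DEGs, against 0.235% of all genes. Pgrmc2, a membrane-associated haem-binding protein of progesterone signalling, fell in females by 0.54 (adjusted p = 0.0025), and Esrrg, an orphan oestrogen-related receptor, rose by 0.54 (adjusted p = 0.0065). Esrrg was higher in males in both genotypes, by 1.77 and 1.35 on the log2 scale. Nr3c1, the glucocorticoid receptor, was lower in male than in female wild types (-0.57, adjusted p = 0.0054) and was not a DEG between the genotypes (-0.09 in females and 0.30 in males). Esr2, oestrogen receptor beta, had at most 21 counts in a library.

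Of 11 tested genes known from other tissues as oestrogen or progesterone targets, 0 rose and 2 fell in female knockouts, against 36.9% of all genes called. They were Ccnd1, which drives entry into the cell cycle (-1.47, SE 0.16), and Xbp1, a regulator of secretory capacity (-1, SE 0.15). In males 0 of 11 were DEGs, against 0.235% of all genes. Between the wild-type sexes 3 were higher and 5 lower in males, against 36.5% of all genes called. Greb1, an oestrogen-induced growth gene, was 0.257 CPM in female and 7.44 CPM in male wild types (log2 fold change 4.78, adjusted p = 2.1e-06). Wnt4, a signalling ligand downstream of the progesterone receptor, was likewise higher in males (2.07, adjusted p = 1.5e-06). Among the 5 that were lower in males, Ccnd1 was 144 and 68.6 CPM and Xbp1 308 and 150 CPM in female and male wild types.

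Nr3c2 (ENSMUSG00000031618.14, chromosome 8, 77625576 to 77971863, plus strand) was lowest in female wild types, at 15.2, 13.6 and 12 CPM. It was 21.5, 24.4 and 20.4 CPM in female knockouts, 21.6, 18.3 and 22.7 CPM in male wild types and 22, 16.0 and 15.8 CPM in male knockouts. All 9 other glands lay above all 3 female wild types. In females Nr3c2 rose 1.63-fold in knockouts (log2 fold change 0.70, SE 0.14, 95% interval 0.39 to 1.01, adjusted p = 0.0026). Male wild types exceeded female wild types 1.53-fold (0.62, SE 0.14, adjusted p = 0.0047). Both calls held in each of the 12 fits without 1 library, with adjusted p of at most 0.023. Other measures separated the female wild types as well. Genes annotated as long noncoding or unconfirmed transcripts took 0.965%, 0.763% and 0.504% of the counts in female wild types, 1.44% to 1.69% in female knockouts and 1.21% to 2.19% in males. The summed acinar markers were 377000 to 597000 CPM in female wild types and at most 261000 CPM in the other 9 glands. Mucl2 added most to this sum, with 328000 to 537000 CPM in female wild types. Of the other acinar markers, Aqp5, Pip, Prol1 and Lpo also separated the female wild types, and Bhlha15, Smgc, Muc19, Dcpp1, Dcpp2 and Dcpp3 did not. The part of the noncoding share or of acinar content in the Nr3c2 differences was not tested. In males the genotype difference was -0.22 (SE 0.14, adjusted p = 0.61), and knockout males and females differed by -0.30 (SE 0.14, adjusted p = 0.10). The last value was called without male knockout mouse 1 (-0.47, adjusted p = 0.013), with upper-quartile scaling (-0.47, adjusted p = 0.017) and with the authors' factors (-0.72, adjusted p = 0.0087).

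Nr3c2 was the single member whose genotype difference itself was called as different between the sexes in the fit on all libraries. The interaction of sex and genotype was 0.92 on the log2 scale (SE 0.20, adjusted p = 0.0086, edgeR), against 25.7% of all genes called in this test. That share stands for 4604 genes, which became 2384 without male wild-type mouse 1, 2898 without male wild-type mouse 3 and 2984 without male knockout mouse 3. It lay between 0.77 and 1.08 when each library was left out in turn, with adjusted p between 0.0037 and 0.027. Without the 3 adipocyte-rich libraries together it was 0.50 (adjusted p = 0.19), a fit that keeps 1 male knockout, assumes that it varies like the other groups, and calls 0 of all genes. Male knockout mice 2 and 3, which that fit leaves out, were the 2 male knockouts with low Nr3c2.

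Genes of aldosterone-regulated sodium transport were examined beside Nr3c2. Scnn1a, Scnn1b and Scnn1g encode the epithelial sodium channel, Sgk1 the kinase that keeps it at the membrane and Nedd4l the ubiquitin ligase that removes it, which Sgk1 inhibits. Of 10 tested genes of mineralocorticoid action, 4 were higher and 0 lower in male than in female wild types, with a median log2 difference of 0.30, against 36.5% of all genes called in either direction. Scnn1b was 26.1, 31.3 and 24.8 CPM in female and 102, 135 and 117 CPM in male wild types (2.10, SE 0.15, adjusted p = 4.4e-07), and Sgk1 was 27.9 to 33.6 CPM in females and 189 to 309 CPM in males (2.87, adjusted p = 1.1e-06). Neither channel subunits nor Sgk1 were DEGs between female genotypes. In female knockouts 1 of 10 rose and 3 fell, against 36.9% of all genes called. Nedd4l rose from 24.6, 23.2 and 21.2 to 39.3, 29.4 and 35.8 CPM (0.60, SE 0.15, adjusted p = 0.0093) and had an interaction of 1.03 (adjusted p = 0.0072). Usp2, a deubiquitinase that the circadian clock also controls, was -2.28 in females (adjusted p = 2e-06) and -0.82 in males (adjusted p = 0.023). The male call was lost in the fit on the compared groups alone, without the 3 adipocyte-rich libraries, and without each male wild type, male knockout mouse 2, female knockout mouse 1 or female wild-type mouse 3.

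**Figure D3:**
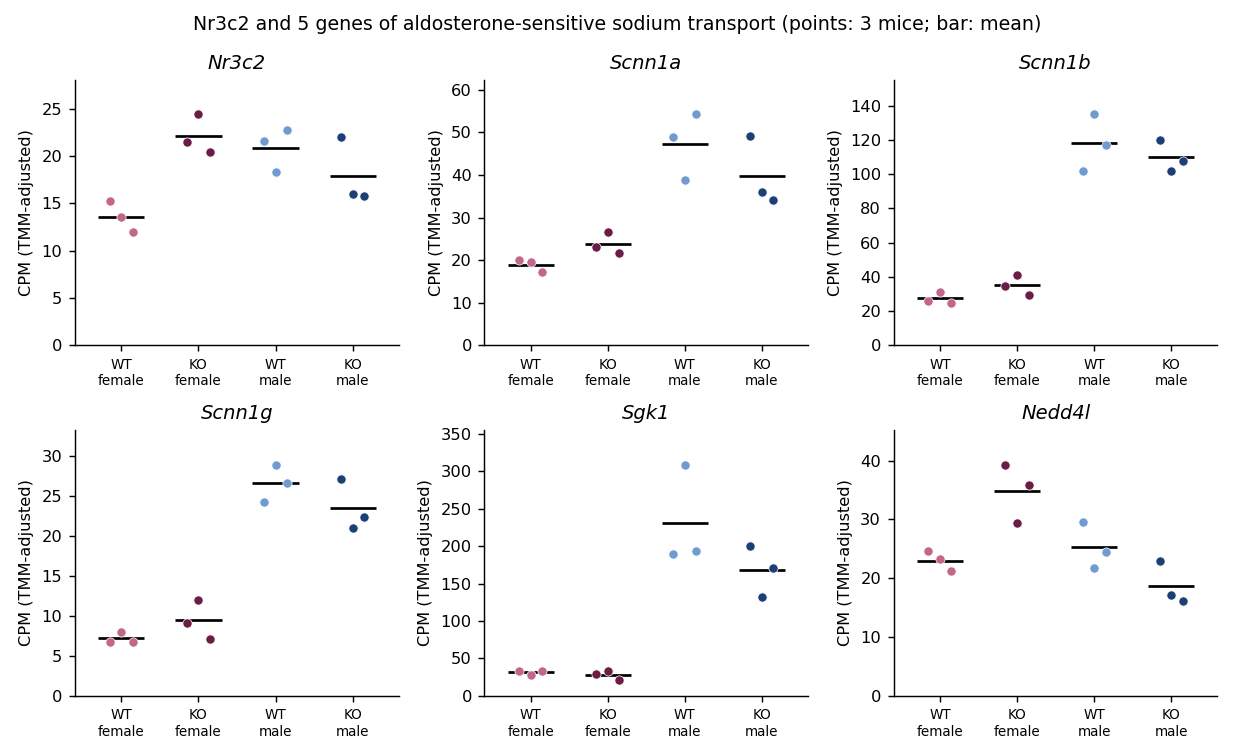
CPM (y axes, from 0) of Nr3c2 and 5 sodium transport genes in the 4 groups; points are single mice and bars are means of 3. Scnn1b and Sgk1 separate the sexes, whereas Nr3c2 and Nedd4l are higher in female knockouts than in female wild types.

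Within groups, the genes most like Nr3c2 were Scnn1a, Pde1c and Slit2, which were close to each other. The deviations of their log2 CPM from the group means correlated with those of Nr3c2 at r = 0.962, 0.960 and 0.956 over 12 libraries. These coefficients describe libraries that share their scaling, and a link between Nr3c2 and Scnn1a was not tested. In male knockouts, for example, mouse 1 was highest for Nr3c2 and Scnn1a, at 22 and 49.1 CPM. Mice 2 and 3 had 16.0 and 15.8 CPM of Nr3c2 and 36.1 and 34.1 CPM of Scnn1a. Over all libraries, group differences included, the genes most like Nr3c2 were Aopep (r = 0.953), Kif21b (0.950) and Plekha5 (0.949). Within groups the coefficients of these genes were 0.854, 0.878 and 0.820, and none was among the 3 most alike. Hsd11b2, the enzyme that keeps glucocorticoids away from the mineralocorticoid receptor in kidney, had 0 to 5 counts in every library and could not be tested. Hsd11b1, which makes active glucocorticoid, was higher in males than in females of both genotypes (2.02 in wild type, adjusted p = 0.0014, and 2.41 in knockouts, adjusted p = 0.00034).

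Prlr (ENSMUSG00000005268.21, chromosome 15, 10177258 to 10349959, plus strand) was the member with the largest sex difference in both genotypes on TMM scaling; with the authors' factors Prlr was -0.69 and Nr3c2 -0.72 between knockout sexes. Female wild types had 70.0, 83.6 and 87.6 CPM and male wild types 29.6, 40.7 and 35.6 CPM. Female knockouts had 61.0, 61.3 and 64.5 CPM and male knockouts 40.0, 34.7 and 32.0 CPM. Every female lay above every male, and every female wild type above every female knockout. Males were 2.28-fold lower in wild type (log2 fold change -1.19, SE 0.13, 95% interval -1.47 to -0.91, adjusted p = 1.5e-05) and 1.75-fold lower in knockouts (-0.81, SE 0.13, 95% interval -1.09 to -0.53, adjusted p = 0.00029). Both calls held without each library in turn, at -1.32 to -1.07 in wild type and -0.89 to -0.73 in knockouts.

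Prlr fell 1.29-fold in female knockouts (-0.37, SE 0.13, 95% interval -0.64 to -0.09, adjusted p = 0.039), while in males it was 0.01 (SE 0.13, 95% interval -0.27 to 0.29). The female call was close to the threshold, and with the replicate block it did not pass (-0.36, adjusted p = 0.051). It was lost without female knockout mouse 1, female wild-type mouse 2 or 3, or male wild-type mouse 3 (adjusted p of 0.051 to 0.087), with upper-quartile scaling (-0.26, adjusted p = 0.094), with the authors' factors (-0.29, adjusted p = 0.096) and without the 3 adipocyte-rich libraries (-0.34, adjusted p = 0.11). The difference between the sexes in this change was -0.38 (SE 0.18, adjusted p = 0.13), so it is not shown that the genotype difference of Prlr is particular to females. That difference was called without female wild-type mouse 1 (-0.57, adjusted p = 0.025) or male wild-type mouse 2 (-0.50, adjusted p = 0.049). Summed markers of acinar cells, 377000 to 597000 CPM in female wild types and 219000 to 261000 CPM in female knockouts, were also lower in the female knockouts, and 76100 to 144000 CPM in males. Mucl2 added most to these sums, and their part in the Prlr difference was not tested.

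Of 14 tested genes of the prolactin and growth hormone axis, 5 were higher and 4 lower in male than female wild types, against 36.5% of all genes called, and 4 were higher and 3 lower in male knockouts, against 43.5%. Stat5b and Stat5a, the transcription factors that carry the prolactin signal, were lower in males (-0.74 and -0.47 in wild type, -0.54 and -0.60 in knockouts, all with adjusted p of at most 0.0052). Elf5, a STAT5 target that directs alveolar differentiation in mammary gland, was 97.9, 106 and 121 CPM in female and 45.2, 49.9 and 42.3 CPM in male wild types (-1.24, SE 0.13, adjusted p = 1.2e-05). Ghr, the growth hormone receptor, was higher in males (0.87, adjusted p = 0.00025), as was Cish, a STAT5-induced inhibitor, in wild type (0.55, adjusted p = 4e-04). Igfals, the carrier subunit of circulating IGF complexes, rose from 2.21 CPM in female to 27.0 CPM in male wild types. Between female genotypes 0 of 14 rose and 3 fell, against 36.9% of all genes called: Socs2, a feedback inhibitor (-0.75, adjusted p = 0.0011), Ptpn11 (-0.43) and Grb2 (-0.40). In males 0 of 14 were DEGs, against 0.235% of all genes. The hormone genes Prl and Gh had at most 2 counts in a library.

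Rora, a nuclear receptor of the clock and of lipid metabolism, was the gene most like Prlr across the 12 libraries (r = 0.988), followed by Morc4 (0.986) and 1700019D03Rik (0.985). Rora was 58.7 CPM in female wild types, 43.1 in female knockouts, 24.6 in male wild types and 23.4 in male knockouts, the same order of groups as that of Prlr except that the male groups, which overlap, changed places. On deviations from the group means the coefficient of Rora was 0.840, and none of the 3 genes was among the 3 most alike.

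Srd5a1 (ENSMUSG00000021594.12, chromosome 13, 69721568 to 69759750, minus strand, within the span of Nsun2 on the opposite strand) varied more within groups than between them. Its levels were 6.65, 1.93 and 2.16 CPM in female wild types, 5.31, 8.21 and 4.27 in female knockouts, 4.80, 2.51 and 3.02 in male wild types and 4.63, 7.30 and 4.24 in male knockouts. Female wild-type mouse 1 was 3 times as high as the other 2 mice of its group. The genotype difference was 0.72 in females (SE 0.43, 95% interval -0.21 to 1.65, adjusted p = 0.21) and 0.64 in males (SE 0.43, 95% interval -0.28 to 1.56, adjusted p = 0.61), so that neither was a DEG. Without female wild-type mouse 1 the female difference was 1.48 (adjusted p = 0.0075). Between the sexes Srd5a1 was -0.07 in wild type (SE 0.43) and -0.14 in knockouts (SE 0.42).

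The level of Srd5a1 in a mouse went with that of Muc1 and F5. Muc1, a membrane mucin (r = 0.973), and F5, a coagulation factor (0.959), were most like it, and Muc1 stayed among the 3 most alike when group means were removed. In female wild types Muc1 was 3.07, 0.269 and 0.548 CPM and F5 10.4, 0.942 and 2.27 CPM, both highest in mouse 1. Of 12 duct markers, 3 were also highest in mouse 1, Krt19 (4.34, 0.718 and 1.02 CPM), Slc4a4 (10.9, 3.90 and 9.65 CPM) and Krt7 (36.3, 36.0 and 32.5 CPM), and 9 were lowest in it. Their summed level, to which abundant genes such as Krt8 and Epcam add most, was 376, 490 and 463 CPM in the same mice. Female wild-type mouse 1 was also the gland with the highest macrophage marker sum. The part of duct content in the Srd5a1 differences was not tested.

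**Figure D4:**
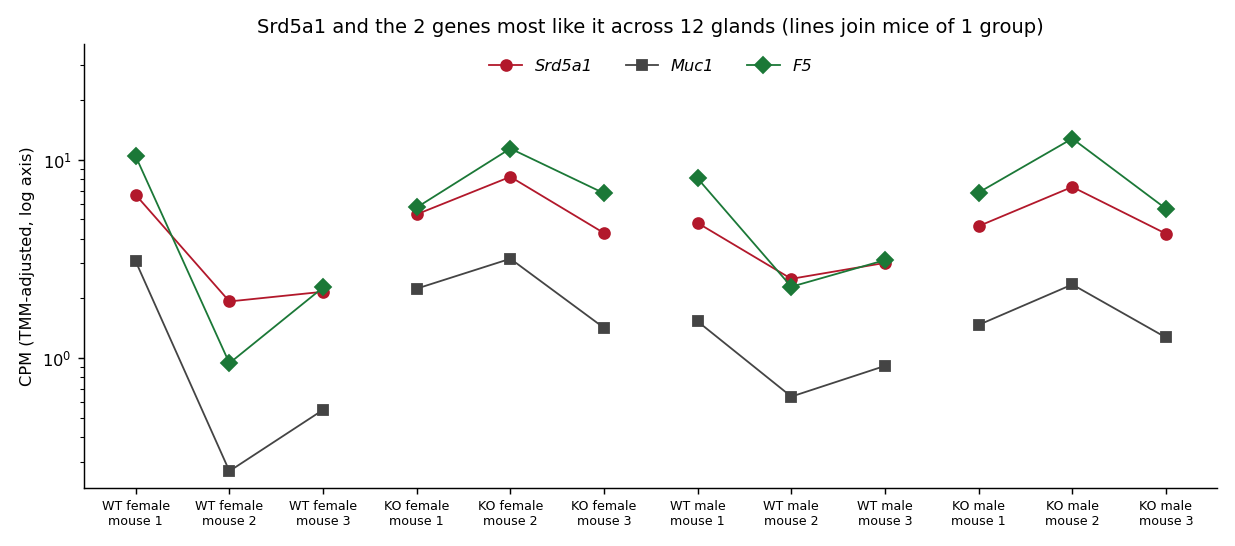
CPM on a log axis (y axis) of Srd5a1, Muc1 and F5 in the 12 glands (x axis), with lines joining the mice of 1 group. In all 4 groups the mouse with the highest Srd5a1 is also the highest for both other genes, for example female wild-type mouse 1 at 6.65 CPM of Srd5a1 and 3.07 CPM of Muc1.

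Other steroid enzymes were called in both directions. Of 28 listed, 14 could be tested, and in female knockouts 2 rose and 4 fell, against 36.9% of all genes called. Hsd17b12, which elongates fatty acids and can reduce oestrone (-0.88, SE 0.14, adjusted p = 7e-04), and Hsd17b4, a peroxisomal enzyme that also oxidises oestradiol (-0.53, SE 0.10, adjusted p = 0.002), fell, while Star, the mitochondrial cholesterol carrier, rose at a low level, from a mean of 0.311 to 0.940 CPM (1.55, SE 0.49, adjusted p = 0.024). In males 0 of 14 were DEGs, against 0.235% of all genes. Between the wild-type sexes 6 were higher and 3 lower in males, against 36.5% of all genes called. In knockouts 9 were higher and 1 lower, against 43.5%. Sult1e1, the sulphotransferase that inactivates oestrogens, had at most 2 counts in each female library and 981 to 1642 counts in each male library. Akr1c18, which inactivates progesterone, was 0.680 CPM in female and 0.0367 CPM in male wild types, the latter within the limit that 3 counts set. Srd5a2, the second 5-alpha reductase, and Cyp19a1, the aromatase, had a count of 0 in all 12 libraries.

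Androgen-regulated genes differed between the sexes over a wide range. Of 13 tested, 7 were higher and 4 lower in male wild types, against 36.5% of all genes called, and the median log2 difference was 1.22, against 0.06 over all genes. Egf was 506 CPM in female and 47300 CPM in male wild types (6.55, adjusted p = 1.4e-07). It is a product of the granular convoluted tubules. In female knockouts 3 of 13 rose and 1 fell, against 36.9% of all genes called. Odc1, the first enzyme of polyamine synthesis, fell by 1.25 (adjusted p = 4.3e-05), and Tmprss2, a membrane protease, rose from 31.0 to 48.3 CPM (0.64, adjusted p = 0.0018). In males 0 of 13 were DEGs, against 0.235% of all genes.

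Thra (ENSMUSG00000058756.14, chromosome 11, 98629109 to 98661924, plus strand) and Thrb (ENSMUSG00000021779.20, chromosome 14, 4429815 to 4809435, minus strand) moved in opposite directions in females on TMM scaling, and Thrb did not fall on the authors' scaling. Thra was 11.4, 12.2 and 12.8 CPM in female wild types and 19.1, 19.0 and 15.4 CPM in female knockouts, a rise of 1.47-fold (log2 fold change 0.56, SE 0.11, 95% interval 0.33 to 0.79, adjusted p = 0.0017). Thrb was 34.4, 33.0 and 37.6 CPM in female wild types and 25.0, 29.7 and 26.2 CPM in female knockouts, a fall of 1.3-fold (-0.38, SE 0.10, 95% interval -0.59 to -0.16, adjusted p = 0.011). Neither pair of groups overlapped, and both calls held without each library in turn. In males Thra was 13.5, 12.8 and 14.9 CPM in wild types and 16.4, 15 and 14.9 CPM in knockouts (0.17, SE 0.10, adjusted p = 0.57), and Thrb was 28.5, 30.1 and 31.2 CPM and 31.4, 26.7 and 26 CPM (-0.09, SE 0.10, adjusted p = 0.78). The interaction was 0.39 for Thra (adjusted p = 0.072) and -0.28 for Thrb (adjusted p = 0.15), so neither was called. The interaction of Thrb was called without female knockout mouse 2 (-0.44, adjusted p = 0.031), and that of Thra with upper-quartile scaling (0.47, adjusted p = 0.032).

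The fall of Thrb depended on the scaling. The authors' deposited normalized counts divide each gene by a factor that differs between genes within a library. On that scale Thrb was 1871, 1532 and 1626 in female wild types and 1599, 1864 and 1902 in female knockouts, and edgeR with these factors gave 0.09 (adjusted p = 0.57) in place of -0.38. With the same factors Prlr was -0.29 (adjusted p = 0.096), and Nr3c2 (1.13) and Thra (0.45) remained called. The text of the methods does not state how the factors were made, and the cause of the difference was not tested.

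The 3' end of Thra overlaps Nr1d1, a clock repressor on the opposite strand (98658752 to 98666188), by 3173 bases. The library kit keeps the strand, but the strand setting of the counting is not given in the sources used here. Nr1d1 fell in female knockouts from 62.8, 92.0 and 79.1 to 46.8, 37.6 and 56.3 CPM (-0.73, SE 0.15, adjusted p = 0.0027), opposite to Thra, and in males from 50, 51.4 and 55.7 to 26.7, 29.3 and 29.7 CPM (-0.87, SE 0.15, adjusted p = 0.037), where Thra was not a DEG. Of 17 clock genes, Nr1d1 among them, 14 were DEGs between female genotypes, against 36.9% of all genes, and 12 between male genotypes, against 0.235% of all genes. The male share stands for the same 42 genes. Without single male libraries this number was 13 to 25, except 635 without male knockout mouse 1. The clock genes were not counted in those fits. Bmal1 and Npas2, the activators of the loop, rose by 3.45 and 3.52 in females and by 2.87 and 3.21 in males, and Dbp fell by 2.58 and 3.17. The times at which the glands were taken are not given in the sources used here, so that genotype and time of day cannot be told apart, for the members as well.

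Of 20 tested genes of the thyroid hormone axis, 2 rose and 2 fell in female knockouts, against 36.9% of all genes called. In males 0 of 20 were DEGs, against 0.235% of all genes. Hr, a thyroid hormone target and corepressor, rose (0.56, SE 0.18, adjusted p = 0.028). Klf9, a direct thyroid hormone and glucocorticoid target, fell (-0.48, SE 0.11, adjusted p = 0.0049). Between the wild-type sexes 5 were higher and 4 lower in males, against 36.5% of all genes called, among them Ttr, a carrier of thyroxine (0.393 and 4.08 CPM), and Rxrg, a heterodimer partner (2.37 and 0.197 CPM in females and males). Dio1, which converts thyroxine to its active form, ranged from 0.195 to 1.55 CPM within female wild types and was not a DEG between the genotypes in either sex; between knockout sexes it was lower in males (-2.73, SE 0.93, adjusted p = 0.031). Thra and Thrb themselves were not DEGs between the sexes, at 0.18 (adjusted p = 0.20) and -0.23 (adjusted p = 0.092) in wild type. Thrb was called there with RLE scaling (-0.27, adjusted p = 0.042), upper-quartile scaling (-0.31, adjusted p = 0.019) and DESeq2 (-0.27, adjusted p = 0.041), and without female knockout mouse 2 (-0.25, adjusted p = 0.044). Between knockout sexes Thra was called with upper-quartile scaling (-0.37, adjusted p = 0.010).

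Of 10 tested chaperones that hold steroid receptors in a hormone-ready state, 0 rose and 6 fell in female knockouts, against 36.9% of all genes called in either direction. The median log2 fold change was -0.57, against 0.03 over all genes, while Stub1 and Ppid were at 0.22 and 0.30 and were not called. Fkbp4, a co-chaperone of the progesterone receptor, was 113 CPM in wild types and 67.4 CPM in knockouts (-0.75, SE 0.11, adjusted p = 0.00042), and Ptges3, known as p23, was 81.3 and 42.4 CPM (-0.94, SE 0.14, adjusted p = 0.00048). In males 0 of 10 were DEGs, against 0.235% of all genes. The interaction was called for 6 of 10, all negative, against 25.7% of all genes. Hspa8 was at -1.52 (adjusted p = 0.0044) and Hsp90aa1 at -0.88 (adjusted p = 0.0045) in the edgeR interaction test. Without the 3 adipocyte-rich libraries 0 of all genes were called in this test. Fkbp5, a co-chaperone induced by glucocorticoid and androgen, was higher in males in both genotypes (2.46 and 2.83). Over the 97 tested genes of all hormone lists except the clock list, 9 rose and 24 fell in female knockouts, a total of 33 against 36.9% of all genes. In male knockouts 0 rose and 1 fell, against 0.235% of all genes called. This total was 6 with DESeq2 (2.2% of all genes called) and 6 without the low-count filter (1.26%). Without male knockout mouse 1 it was 8 (3.42%). It was 0 in each fit that lost the male Usp2 call. The medians were -0.09 and 0.00.

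Levels of different members can be compared only per length, here as CPM per kilobase of merged exons. In female wild types Prlr (4.33 ± 0.497, SD, n = 3) and Thrb (3.81 ± 0.257) led, and their ranges overlapped. Nr3c2 (1.59 ± 0.185), Thra (1.53 ± 0.0850) and Srd5a1 (1.1 ± 0.820) followed with ranges that overlapped between neighbours, then Pgr (0.395 ± 0.0672) and Esr1 (0.176 ± 0.0677) without overlap. In both male groups Thrb led, with 3.25 ± 0.151 in wild types and 3.05 ± 0.314 in knockouts, and did not overlap the next gene, Nr3c2, while Prlr came after Nr3c2 in wild types (1.90 ± 0.300) and after Nr3c2 and Thra in knockouts (1.92 ± 0.224). Pgr and Esr1 were the lowest in all 4 groups. With the length of the longest transcript in place of merged exons these 2 genes stayed lowest, but the order among Prlr, Thrb, Nr3c2 and Thra changed in all 4 groups. In both male groups Thrb then overlapped the next gene, Prlr, with means of 3.74 and 3.40 in wild types and 3.51 and 3.43 in knockouts. On the authors' normalized values Thrb, and not Prlr, led in female knockouts, with overlapping ranges.

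**Figure D5:**
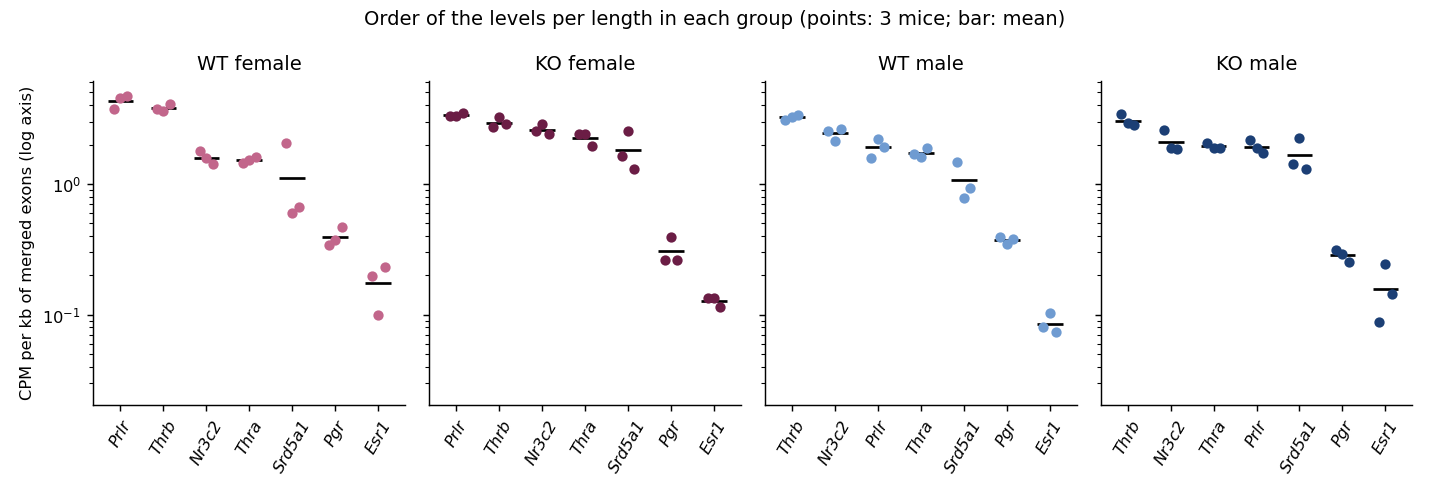
Levels of the 7 members per kilobase of merged exons (y axis, log scale, CPM per kb), ordered within each group; points are single mice and bars are means of 3. On this scale Prlr leads in both female groups, at 4.33 in wild types and 3.36 in knockouts (on the authors' normalized values Thrb leads in the latter). Thrb leads in both male groups, at 3.25 and 3.05. With the longest transcript as length, Thrb overlaps Prlr in both male groups.

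Among themselves the members did not share a single pattern. Of 21 pairs, Pgr and Thrb were the most alike, with r = 0.805 over the 12 libraries and 0.750 on deviations from the group means. Nr3c2 and Thra had r = 0.704, and 0.448 on deviations. Esr1 and Nr3c2 ran in opposite directions (-0.615, and -0.551 on deviations). These coefficients describe 12 libraries that share their scaling factors. Esr1, Nr3c2, Prlr and Thrb lay among the 2836 coding genes with the longest span, whose median log2 difference between female genotypes was 0.07, against -0.23 in the 2837 with the shortest, and the differences of these 4 members ran from -0.46 to 0.70.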

How the data were processed

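Expression was measured by bulk RNA-sequencing of 12 snap-frozen SMGs in 4 groups of 3 mice, grouped by the deposited labels. Stranded libraries were made from ribosomal RNA-depleted total RNA, although the labels name polyA RNA as the molecule. The authors mapped reads with Salmon 1.10.1 to Gencode M35 (GRCm39) and deposited estimated counts per gene. The deposited normalized counts are a signal that the authors obtained by dividing those counts by gene-specific and library-specific factors; they entered 1 alternative and the order of levels.

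Estimated counts were rounded and analysed with edgeR 4.0.16 (limma 3.58.1, R 4.3.3): filterByExpr, TMM (factors 0.625 to 1.45), and a quasi-likelihood fit with 1 mean per group over all 12 libraries. The 5 contrasts compared the genotypes in females, the genotypes in males, those differences with each other (females minus males), and the sexes in each genotype. P-values were adjusted by Benjamini-Hochberg over 17893 genes. SEs were taken as the size of the log2 fold change over the root of the F statistic, and intervals are at 95%. Likeness is Pearson's r of log2 CPM (prior count 2) over 12 libraries among coding genes. The mice are separate animals, and p-values cover the spread between them. Per library, the 20 most abundant genes took 53.2% to 80.0% of the counts.

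Positions and lengths came from Gencode M39, which holds 55563 of the identifiers. Promoters came from RefSeq and were searched for motifs with Python 3.11.15 and pandas 2.3.3; figures used matplotlib 3.10.9. The script was tested on simulated counts. All members were named; of each pathway list, the 2 called genes per direction with the smallest adjusted p, plus Nr3c1, Hsd11b2, Nr1d1, Stat5a, Stat5b and Dio1, were eligible for naming, and further genes were named after their values were seen. Some eligible genes are not reported here. The members and lists were chosen with earlier results of these data known. Alternatives were RLE, upper-quartile and the authors' factors, library sizes without the 20 most abundant genes, no filter or at least 10 counts, fits on the compared groups, a replicate block, DESeq2 1.42.0, each library left out, and, added after seeing the data, 3 libraries left out.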

Additional observations from a re-analysis of the deposited data

Results flagged for a closer look

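Nr3c2 met the rule for a genotype difference that differs between the sexes. The female log2 fold change minus the male one was 0.92 (SE 0.20, adjusted p = 0.0086, edgeR), with Nr3c2 higher in 3 of 3 female knockouts than in any female wild type and with overlapping groups in males. It was 0.50 (adjusted p = 0.19) without the 3 adipocyte-rich libraries.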

How the results depend on the processing

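All values are log2 fold changes or counts of members called. Under the alternatives, 688 values of single members kept their direction and their side of the threshold, 40 turned direction, 18 passed the threshold newly and 17 no longer passed it. Of those that turned, Thrb in females alone was called in the fit on all libraries. Counts of members called are given with the share of all genes called in the same fit in brackets. The interaction gave 1 in the main fit (25.7%) and 2 with upper-quartile scaling (25.6%), without the low-count filter (14.5%) and with DESeq2 (27.1%). Without the 3 adipocyte-rich libraries the interaction of Nr3c2 was 0.50. Between knockout sexes the count was 3 with upper-quartile scaling (44.9%) and 2 with the authors' factors (37.2%). Between female genotypes it was 2 with the authors' factors (34.6%). When each library was left out in turn, counts ran from 3 to 5 between female genotypes (26.5% to 38.4%) and from 2 to 4 between wild-type sexes (27% to 36%). They ran from 1 to 2 in the interaction (12.9% to 30.2%) and between knockout sexes (33.7% to 44.8%). Between male genotypes they stayed at 0 (0.0702% to 3.42%). The cause of these changes was not tested.

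The authors' factors turned Thrb in females to 0.09, the interactions of Pgr, Srd5a1 and Thrb to -0.13, -0.03 and 0.13, Thra between wild-type sexes to -0.01, and Pgr and Thrb between knockout sexes to 0.08 and -0.13. The interaction of Pgr, 0.03 in the main fit, was -0.02 with RLE, -0.04 without the 20 most abundant genes and -0.02 with DESeq2. Upper-quartile scaling turned Thrb between knockout sexes to -0.11. It moved the median of all genes from 0.028 to 0.132 in females and from -0.02 to -0.181 between knockout sexes. Without the 3 adipocyte-rich libraries Nr3c2 and Thrb in males were 0.08 and 0.07, Pgr was 0.05 between wild-type and 0.05 between knockout sexes, and Esr1 and Nr3c2 between knockout sexes were -0.50 and 0.02.

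Replicate numbers are shared between groups but are not said to pair mice, and same-numbered libraries correlated at -0.135 to 0.266. In none of the 4 pairs of groups compared were all 3 correlations over 0.1, so the numbers were not taken to pair the mice; between female knockouts and male wild types, which were not compared, they were 0.132, 0.174 and 0.155. With the replicate block 3 members in place of 4 were called in females (Prlr -0.36, adjusted p = 0.051), and Srd5a1 between wild-type sexes was 0.02. Leaving out each library gave -0.27 to 0.10 for the interaction of Pgr and -0.30 to 0.80 for that of Srd5a1. It gave -0.16 to 0.17 for Pgr, -0.42 to 0.23 for Srd5a1, -0.03 to 0.19 for Thrb and -0.13 to 0.61 for Esr1 between knockout sexes. Between wild-type sexes it gave -0.38 to 0.72 for Srd5a1 and -0.21 to 0.05 for Pgr, and Prlr in males was -0.10 to 0.13. The smallest fold change that 3 mice a group can show for each member was not tested.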
